A study of Mus musculus with 6 samples.

Results

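Adhesion G protein-coupled receptors were followed in RNA from oligodendrocyte precursor cells (OPCs), the glia from which myelinating oligodendrocytes arise. The members were all rows of the deposited gene table whose symbol begins with Adgr, which gave 25 of 18211 genes. RNA was sequenced in 6 libraries, 3 from wildtype (WT) mice and 3 from DISC1-Δ3 mice, all of the C57BL/6 strain. DISC1-Δ3 mice carried the NG2-CreERTM transgene and 1 floxed copy of exon 3 of Disc1 (NG2-CreERTM:DISC1 exon3 fl/+). WT mice are described in the study's text as carrying no CreERT. Both groups received tamoxifen by gavage on each day from P4 to P7, and OPCs were collected at P7 by immunopanning with an antibody to PDGFRα. The Cre is driven by the promoter of NG2 (Cspg4), a promoter that is also active in pericytes. The sources used here do not state whether the libraries of a group came from separate mice, so p-values measure the spread between these samples, which may be technical.

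Adhesion receptors combine a long extracellular region, built from domains that bind matrix or neighbouring cells, with the membrane-spanning part of a G protein-coupled receptor. Most are cut by themselves at a site next to the membrane, and the stretch that this exposes can act as a tethered agonist. In the brain, members of the family are known for roles in synapse formation, myelination, blood vessel growth into neural tissue and the uptake of dead cells, and others are markers of macrophages.

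Libraries held between 13716619 and 16417219 reads assigned to genes. Transcripts that define OPCs were present, with Pdgfra at 17.5 RPKM (read counts divided by transcript length and library total) and Olig1 at 251.5 RPKM in WT (means, n = 3). Microglial transcripts stood far above them, with C1qa at 3312 RPKM and Csf1r at 1865 RPKM in WT, so the libraries labelled as OPCs also held much RNA typical of microglia. Relative to WT, 13 of 13 microglial markers were lower in DISC1-Δ3, and 6 of 8 OPC markers, 8 of 9 pericyte and smooth muscle markers, 6 of 12 endothelial markers and 7 of 10 neuronal markers were higher, by edgeR's quasi-likelihood test. In addition 7 of 9 mature oligodendrocyte markers, 6 of 8 astrocyte markers and 2 of 5 border macrophage markers were lower. Against their lists, the OPC marker Ptprz1 was lower (log2 fold change -0.35) and the astrocyte marker Gfap higher (0.34). Border macrophage markers had a median log2 fold change of 0.14, with a called share of 40%. Of all genes tested, 39.9% passed this test, 20.4% higher and 19.5% lower. In bulk RNA, fewer cells of a type and less RNA per cell cannot be told apart, and this holds for each value that follows. Reads of Disc1, the targeted gene, numbered 350, 406 and 455 in WT and 295, 292 and 349 in DISC1-Δ3, a log2 fold change of -0.45 ± 0.09 (SE, adjusted p = 0.000528). Counts per gene do not resolve exon 3, so they do not check the deletion itself.

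Members spanned a wide range of levels in WT. Adgrg1 (GPR56), which binds collagen III and transglutaminase and is known from OPC proliferation, was the highest at 400.1 ± 10.4 RPKM (SD, n = 3). Adgre1 (F4/80), a surface marker of macrophages and microglia, followed at 120.6 ± 1.62 RPKM, and together they made up between 71.3% and 71.7% of the summed RPKM of all 25 genes in each WT library. In DISC1-Δ3 libraries the share was between 66.7% and 67.9%, below all WT libraries. The next levels in WT were those of Adgrb2 (60.3 RPKM), Adgrb1 (43.0), Adgrl1 (28.6), Adgre5 (16.2) and Adgra3 (12.95), and the values of these neighbours did not overlap between libraries. Adgrl2, Adgrb3 and Adgrl3, at 8.37, 8.21 and 7.75 RPKM, overlapped with each other, as did Adgra2, Adgra1 and Adgrf5 at 4.02, 3.94 and 3.89 RPKM. Adgrl4 and Adgrg6 came below them at 2.98 and 0.943 RPKM. The remaining 9 genes had WT means below 0.5 RPKM.

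**Figure D1:**
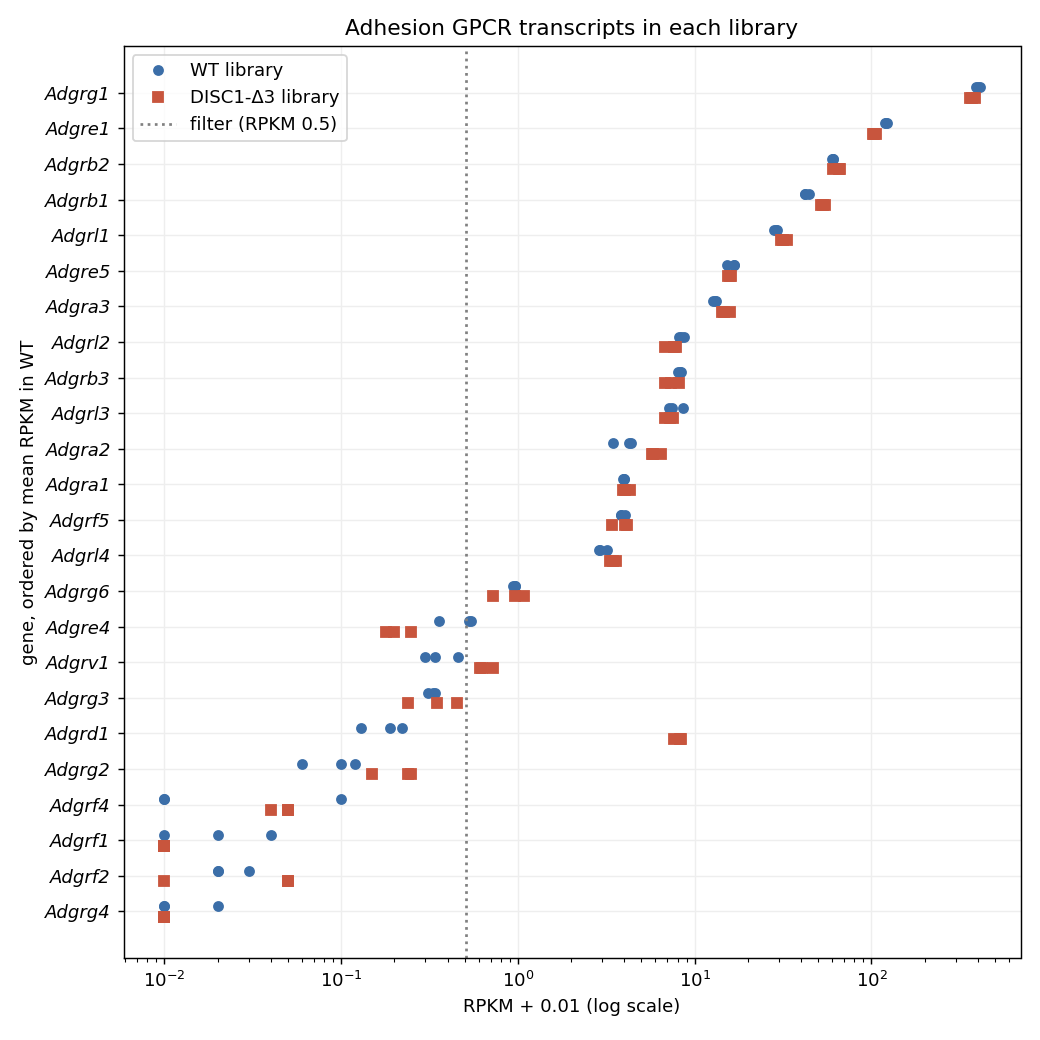
RPKM, plus 0.01, of adhesion receptor genes on a log axis, with 1 point per library in WT and DISC1-Δ3 (n = 3 each). Adgrg1 was the highest in every library, and Adgrd1 had the widest gap between the groups, from 0.12 to 0.21 RPKM in WT and from 7.61 to 8.36 RPKM in DISC1-Δ3.

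A gene entered the test if 3 or more libraries reached an RPKM of 0.5, which 18 of the 25 members did. Of these, 4 were higher in DISC1-Δ3 (Adgrd1, Adgrv1, Adgra2 and Adgrb1), 5 were lower (Adgre1, Adgrl2, Adgrg1 and Adgrl3 among them) and 9 did not pass the test at an adjusted p of 0.05. Of all 13792 genes tested, 39.9% passed, 20.4% higher and 19.5% lower, so passing the test was in itself common. With library totals as the only scaling, 69.1% of all calls were higher in DISC1-Δ3, against 51.1% here. Scaled counts of the groups did not overlap for 14 of the 18 members, against 49.6% of all genes tested. The median log2 fold change was -0.07 over the tested members and 0.01 over all genes tested. A called change of more than 1 on the log2 scale was found in 3.82% of all genes, and Adgrd1 had one. Adgrd1 and Adgrv1 passed the filter through their DISC1-Δ3 libraries alone.

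**Figure D2:**
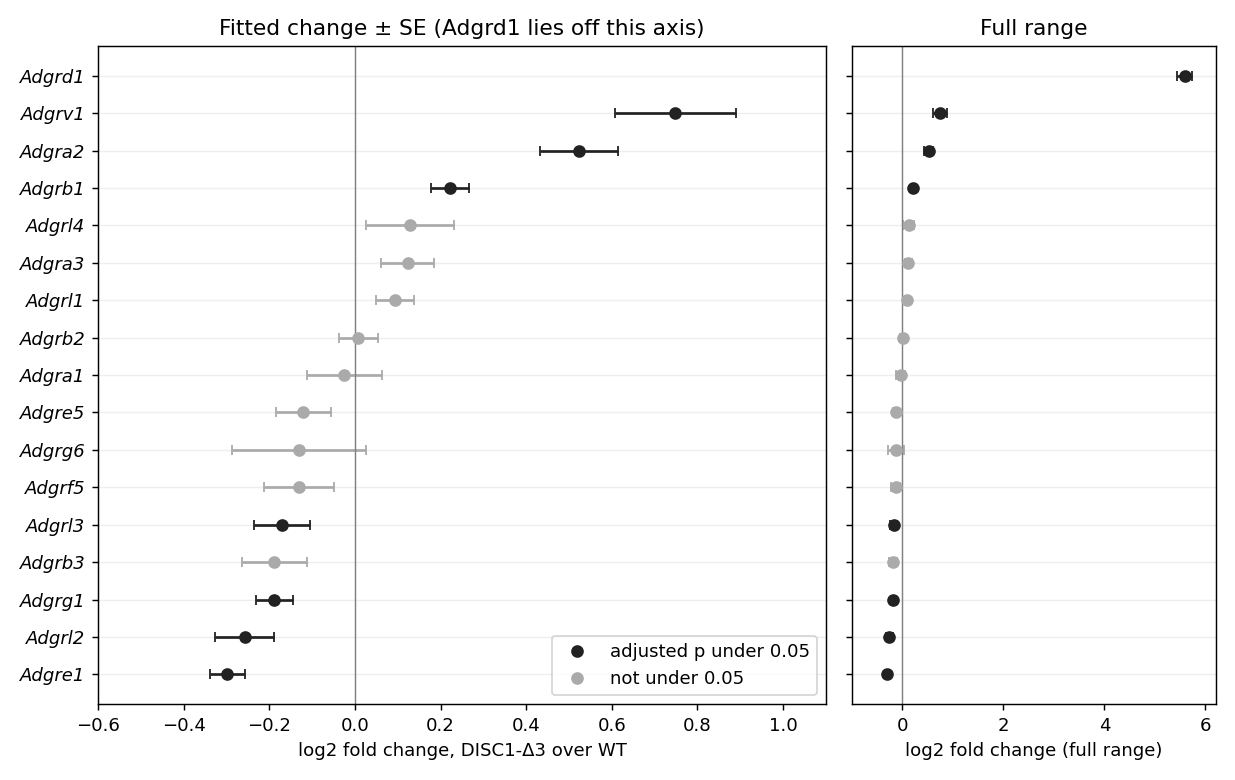
Fitted log2 fold change, DISC1-Δ3 minus WT, for tested members, with bars of 1 SE and black points for those that passed the test; the left panel leaves out Adgrd1 and the right panel shows the full range. Adgrd1 at 5.59 stood apart, and the others drawn lay between -0.30 and 0.75.

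Adgrd1 (GPR133), a receptor that couples to the stimulatory G protein, changed most. Its reads numbered 10, 10 and 14 in WT and 511, 608 and 632 in DISC1-Δ3. In RPKM, the WT libraries had 0.18, 0.12 and 0.21 and the DISC1-Δ3 libraries 7.61, 8.24 and 8.36. The gene was thus close to absent in all WT libraries and well above the filter in all DISC1-Δ3 libraries, and the latter differed little from each other. The fitted fold was 48.1 (log2 fold change 5.59 ± 0.14 SE, adjusted p = 2.25e-15, edgeR), the largest rise among the members and number 31 among all genes tested. From the summed reads alone, 34 in WT and 1751 in DISC1-Δ3, the exact binomial 95% interval of the fold was 36.7 to 74.6, which covers counting error only. When each library was left out in turn, the log2 fold change stayed between 5.46 and 5.73, and on the compressed scale of log2(RPKM + 1) it was 2.95. Per 1000 CPM (counts scaled to the library total) of the summed OPC markers, Adgrd1 stood at 0.355 CPM in WT and 15.1 CPM in DISC1-Δ3. The OPC marker sum rose from between 2016 and 2127 CPM to between 2481 and 2498 CPM. This pair was added after the data were seen, so its ratio restates the rise of Adgrd1 and is no separate support for it.

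Adgrd1 lies at chr5:129096750-129204599 (mm10, RefSeq annotation), and its span also holds Rps16-ps2 and predicted genes. The nearest tested genes were taken after its values were seen. On the side of lower coordinates, Ran and Stx2 had log2 fold changes of 0.14 (adjusted p = 0.0327) and -0.09 (adjusted p = 0.3002), and Rimbp2 had 0.74 (adjusted p = 9.78e-05). On the other side, Sfswap had 0.02 (adjusted p = 0.818), Mmp17 0.89 (adjusted p = 1.96e-06) and Mrps17 0.06 (adjusted p = 0.667). Adgrd1 was picked for its large change, so the smaller changes of these 6 neighbours say nothing about the locus. Of all genes tested, 39.9% passed the test. The RefSeq promoter table used here holds no window for Adgrd1.

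Adgrg1 had 409.42, 401.98 and 388.83 RPKM in WT and 369.99, 382.59 and 360.48 RPKM in DISC1-Δ3. All DISC1-Δ3 libraries were below all WT libraries, by a log2 fold change of -0.19 ± 0.04 (SE, adjusted p = 0.00188). Microglial markers fell as well, from a sum of between 24680 and 25040 CPM to one of between 17720 and 18480 CPM, with a median log2 fold change of -0.43. Relative to them Adgrg1 stood higher in DISC1-Δ3, at 68.0 CPM per 1000 CPM against 53.6 in WT. The ratio was 1.27 with no overlap between the groups (exact permutation test, two-sided p = 0.1, the smallest that 3 against 3 allow). The OPC marker sum rose instead, from between 2016 and 2127 CPM to between 2481 and 2498 CPM. Relative to that list Adgrg1 was therefore lower in DISC1-Δ3, and the ratio was not computed. Adgrg3 (GPR97), a receptor of granulocytes, was under the filter with 11, 13 and 13 reads in WT and 15, 9 and 14 in DISC1-Δ3. Its fold from summed reads was 1.03 with a 95% interval of 0.636 to 1.66.

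Promoter windows of the members were searched for 2 motifs. Each window holds 250 bases before an annotated start and 50 bases after it, read 5′ to 3′ on the strand of the gene (RefSeq, GRCm38.p6, which is mm10). The motifs were PU.1, a factor of microglia and other myeloid cells, searched as GAGGAAGT, and TCF/LEF, the factors of Wnt signalling, searched as CTTTG followed by AA, AT, TT or TA. Both strands were searched, and a window counted once however many matches it held. The PU.1 letters were in 1 of 23 member windows, against 3.2% of all 32851 windows, and the TCF/LEF letters in 3 of 23, against 16.9% of all windows and 11.4% of the windows of tested genes. Windows were available for 19 of the 25 members. Those with a match were Adgre4 for PU.1 and Adgrb3, Adgrf1 and Adgrl2 for TCF/LEF. The Adgrl2 window lies inside the annotated span of the gene, chr3:148815586-148989096, and not at its 5′ end. Shown with the matching letters in capitals are the windows of Adgre4, called lower only in a fit without the filter, and Adgrl2, called lower in the main fit.
Adgre4, chr17:55749734-55750033, + strand: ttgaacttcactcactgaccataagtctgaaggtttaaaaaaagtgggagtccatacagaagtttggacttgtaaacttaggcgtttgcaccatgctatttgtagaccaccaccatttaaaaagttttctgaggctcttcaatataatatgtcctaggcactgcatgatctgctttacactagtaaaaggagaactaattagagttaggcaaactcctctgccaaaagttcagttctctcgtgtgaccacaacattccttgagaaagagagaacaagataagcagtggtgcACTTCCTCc
Adgrl2, chr3:148954586-148954885, - strand: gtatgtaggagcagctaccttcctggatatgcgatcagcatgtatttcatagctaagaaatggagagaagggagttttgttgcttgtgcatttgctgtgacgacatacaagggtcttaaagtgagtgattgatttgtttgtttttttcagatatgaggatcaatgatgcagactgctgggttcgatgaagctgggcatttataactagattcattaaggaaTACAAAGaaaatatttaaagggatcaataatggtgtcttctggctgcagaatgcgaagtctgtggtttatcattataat
A match of letters does not show that a factor binds, and a window without one says only that these letters are not in it.

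Class E of the family holds receptors of the macrophage lineage. Adgre1 had 118.75, 121.09 and 121.87 RPKM in WT and 106.04, 102.85 and 102.00 RPKM in DISC1-Δ3. Every DISC1-Δ3 library was below every WT library, and the log2 fold change was -0.30 ± 0.04 (SE, adjusted p = 1.55e-05). Adgre1 fell less than the microglial markers did, and per 1000 CPM of those markers it rose from 14.8 to 17.4 CPM, a ratio of 1.18 (exact permutation test, p = 0.1). Adgre5 (CD97), a leukocyte receptor that binds CD55, had 16.73, 16.70 and 15.21 RPKM in WT and 15.93, 15.44 and 16.08 RPKM in DISC1-Δ3. Its groups overlapped in RPKM, though not in scaled counts. Its log2 fold change of -0.12 ± 0.06 did not pass the test (adjusted p = 0.149), while its ratio to the microglial markers was 1.33 times that in WT (exact permutation test, p = 0.1). The annotated span of Adgre5 overlaps that of Ddx39a, whose reads could not be separated by strand there. Cd55 itself was under the filter, with 6 to 22 reads in WT and 11 to 33 reads in DISC1-Δ3. Adgre4, a receptor of myeloid cells, was also under the filter with 24, 19 and 29 reads in WT and 8, 13 and 10 in DISC1-Δ3. In a fit without the filter, in which 31.7% of 18172 genes passed, its log2 fold change was -1.30 ± 0.36 (adjusted p = 0.00434), and the WT level was 2.32 times that in DISC1-Δ3 by summed reads, with a 95% interval of 1.504 to 3.66.

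**Figure D3:**
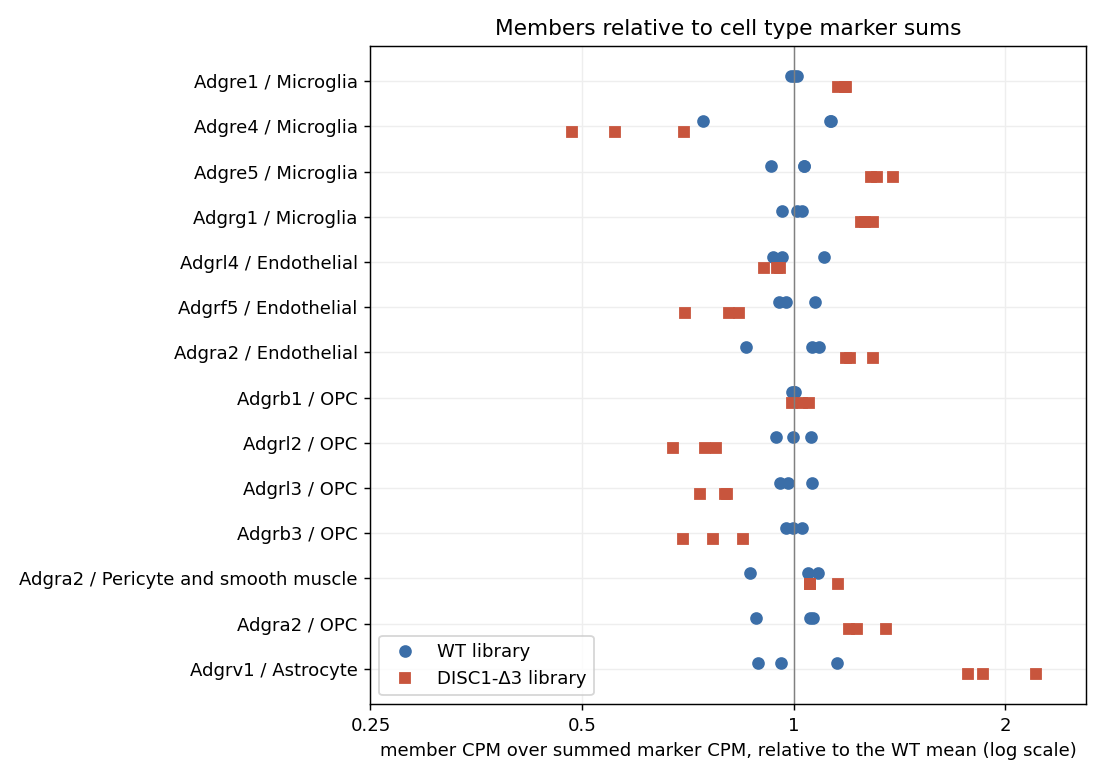
Members relative to the summed CPM of a marker list of the cell type named beside each, with 1 point per library, divided by the WT mean, on a log axis; Adgrd1, at 42.6 times WT relative to OPC markers, is not drawn. Among the pairs drawn, Adgrv1 relative to astrocyte markers lay highest at 1.95 and Adgre4 relative to microglial markers lowest at 0.58. The pairs of Adgrv1 and Adgrd1 were among those added after the data were seen.

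Class B holds the brain-specific angiogenesis inhibitors, neuronal and glial receptors that act at synapses and in the uptake of dying cells. Adgrb1, which recognises phosphatidylserine and signals through ELMO1 and DOCK1, had 44.55, 42.29 and 42.18 RPKM in WT and 54.40, 53.19 and 51.81 RPKM in DISC1-Δ3. The groups were clearly apart, with a log2 fold change of 0.22 ± 0.04 (SE, adjusted p = 0.000542). Relative to OPC markers, its level was 127.5 CPM per 1000 CPM in WT and 130.5 in DISC1-Δ3, and the libraries of the groups overlapped (exact permutation test, p = 0.3). The log2 ratio was 0.03, and with the geometric mean of the markers in place of their sum it was -0.13. Adgrb2 had 60.67, 60.33 and 59.97 RPKM in WT and 66.59, 65.06 and 60.80 RPKM in DISC1-Δ3, with a log2 fold change of 0.01 ± 0.05 (adjusted p = 0.906). RPKM divides by library total and transcript length, whereas the fit applies edgeR's TMM factors as well, which were higher in DISC1-Δ3. For some genes, such as Adgrb3, the length behind the RPKM also differed between libraries. Adgrb2, Adgra3, Adgrl1 and Adgrl4 were above WT in RPKM in every DISC1-Δ3 library without passing the test. Adgrb3, a receptor for C1q-like proteins, had 8.28, 8.33 and 8.01 RPKM in WT and 7.35, 6.74 and 8.11 RPKM in DISC1-Δ3. The third DISC1-Δ3 library lay among the WT libraries in RPKM, though not in scaled counts. The log2 fold change of -0.19 ± 0.08 did not pass the test (adjusted p = 0.0571). Without that library it was -0.26 (adjusted p = 0.0036). The 3 genes together rose from between 15.2% and 15.4% of the summed RPKM of all members to between 17.5% and 18.0%.

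Class L holds the latrophilins, receptors for teneurins and FLRT proteins at synapses, and Adgrl4 (ELTD1) of blood vessels. Adgrl2 had 8.13, 8.31 and 8.68 RPKM in WT and 6.80, 7.58 and 7.85 RPKM in DISC1-Δ3, all below WT. Its log2 fold change was -0.26 ± 0.07 (SE, adjusted p = 0.00656), and with library totals as the only scaling it was -0.18 and not called (adjusted p = 0.0542), nor was it called by limma. Adgrl3 had 8.58, 7.19 and 7.47 RPKM in WT and 7.56, 6.75 and 7.27 RPKM in DISC1-Δ3. These groups overlapped in RPKM, though not in scaled counts. The log2 fold change of -0.17 ± 0.07 (adjusted p = 0.0469) lost its call in 7 of 15 alternatives. Among them were leaving out WT library 1 (adjusted p = 0.238), WT library 3 (adjusted p = 0.0611) or DISC1-Δ3 library 2 (adjusted p = 0.122). Relative to the OPC markers, which rose, Adgrl2, Adgrl3 and Adgrb3 stood at 0.733, 0.780 and 0.770 of their WT levels (exact permutation test, p = 0.1 each). Adgrl1 had 29.05, 27.96 and 28.78 RPKM in WT and 33.44, 30.61 and 31.49 RPKM in DISC1-Δ3, with a log2 fold change of 0.09 ± 0.05 (adjusted p = 0.111). Adgrl4 had 2.86, 3.19 and 2.90 RPKM in WT and 3.58, 3.33 and 3.46 RPKM in DISC1-Δ3, with a log2 fold change of 0.13 ± 0.10 (adjusted p = 0.347). Endothelial markers rose from a sum of between 358.2 and 377.6 CPM to one of between 451.5 and 463.5 CPM, and relative to them Adgrl4 stood at 0.937 of its WT level (exact permutation test, p = 0.4).

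**Figure D4:**
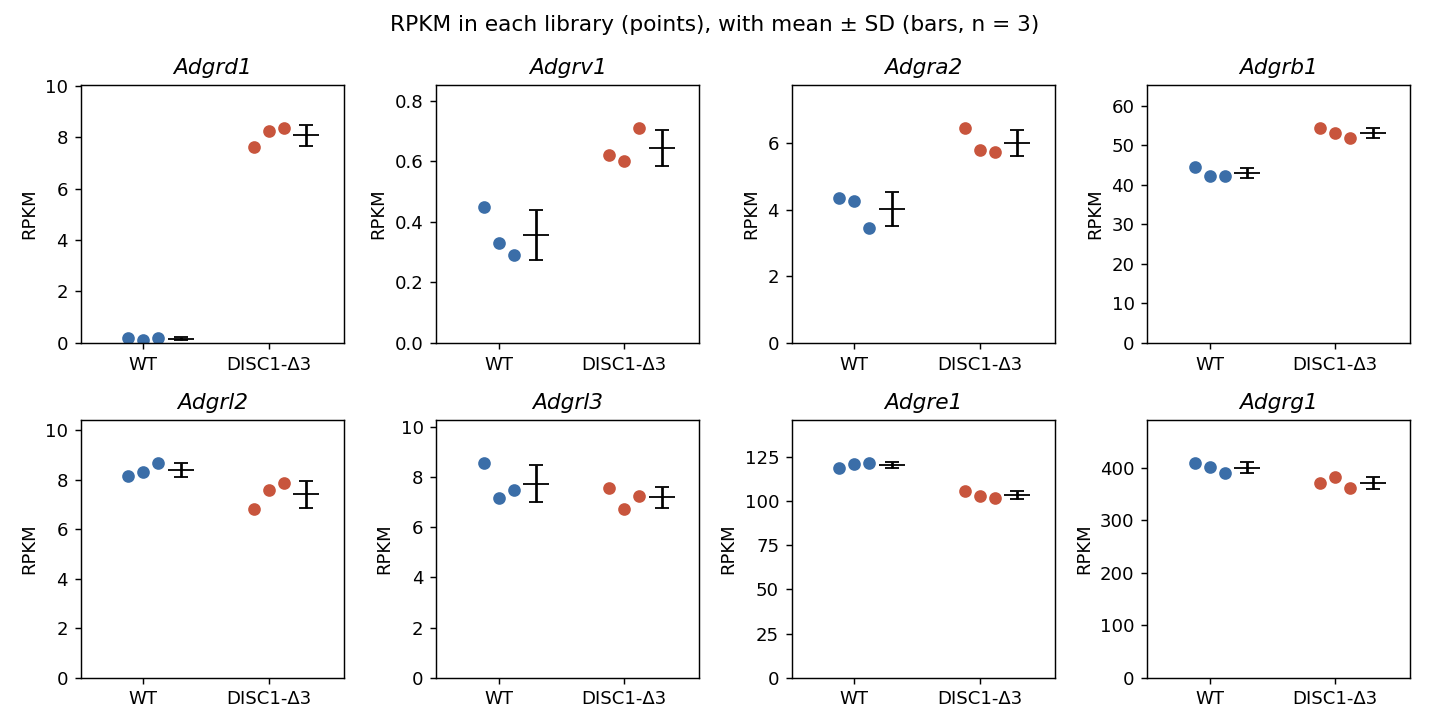
RPKM by library (points) for 8 members that passed the test, with the mean and SD of each group of 3 beside them and an axis from 0 for each gene. The groups were separated in every panel except that of Adgrl3.

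Class A holds Adgra2 (GPR124), which with the co-receptor RECK makes brain vessels respond to Wnt7 ligands. Adgra2 had 4.35, 4.26 and 3.44 RPKM in WT and 6.45, 5.79 and 5.74 RPKM in DISC1-Δ3. All DISC1-Δ3 libraries were above all WT libraries, and the log2 fold change was 0.52 ± 0.09 (SE, adjusted p = 0.000184). Relative to endothelial markers it rose from 58.6 to 72.0 CPM per 1000 CPM, a ratio of 1.23 (exact permutation test, p = 0.1), and relative to pericyte and smooth muscle markers from 50.7 to 55.1, a ratio of 1.09 (exact permutation test, p = 0.4). The sum of the latter markers rose from between 414.2 and 441.3 CPM to between 587.6 and 601.2 CPM. Adgra2 was paired with these markers only after the data were seen. Its partners did not pass the test: the log2 fold change of Reck was 0.38 (adjusted p = 0.0749), that of Wnt7a 0.14 (adjusted p = 0.113) and Wnt7b -0.03 (adjusted p = 0.726). The gene overlaps Brf2, and the protocol as described does not mark strand, so reads in the overlap cannot be told apart. Adgra3 had 13.24, 12.67 and 12.94 RPKM in WT and 15.92, 14.62 and 14.24 RPKM in DISC1-Δ3, and its fitted log2 fold change of 0.12 ± 0.06 did not pass the test (adjusted p = 0.127). For Adgra1, at 3.91 to 3.95 RPKM in WT and 3.92 to 4.27 RPKM in DISC1-Δ3, it was -0.02 ± 0.09 (adjusted p = 0.850).

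The other members come from several classes. Adgrv1 (VLGR1), a very large receptor known from hearing, had 98, 95 and 88 reads in WT and 140, 164 and 199 reads in DISC1-Δ3. In RPKM it had 0.45, 0.33 and 0.29 in WT and 0.62, 0.60 and 0.71 in DISC1-Δ3, a log2 fold change of 0.75 ± 0.14 (SE, adjusted p = 0.000396) at a low level. On the scale of log2(RPKM + 1) the change was 0.28 (limma, adjusted p = 0.0426). Astrocyte markers fell from a sum of between 7768 and 8006 CPM to one of between 7059 and 7200 CPM. Relative to them Adgrv1 stood at 1.95 times its WT level (exact permutation test, p = 0.1). This pair was added after the data were seen, and Adgrv1 passed the filter through its DISC1-Δ3 libraries alone. The p-value of the pair is therefore no support for a change. Adgrf5 (GPR116), a receptor of blood vessels and lung, had 3.84, 4.03 and 3.80 RPKM in WT and 3.41, 4.01 and 4.11 RPKM in DISC1-Δ3. Its log2 fold change was -0.13 ± 0.08 (adjusted p = 0.217), and it stood at 0.782 of its WT level relative to endothelial markers (exact permutation test, p = 0.1). Adgrg6 (GPR126), required by Schwann cells for myelination, had 0.95, 0.95 and 0.93 RPKM in WT and 1.07, 0.71 and 0.95 in DISC1-Δ3, with a log2 fold change of -0.13 ± 0.16 (adjusted p = 0.544). Adgrg2, known from the epididymis, was under the filter with 3, 8 and 7 reads in WT and 9, 18 and 17 in DISC1-Δ3, a fold of 2.45 by summed reads with a 95% interval of 1.38 to 4.50, and a log2 fold change of 1.19 in the unfiltered fit (adjusted p = 0.0584). The last 4 had at most 4 reads in any library: Adgrf1, Adgrf2, Adgrf4 and Adgrg4. No difference was detectable for them at this depth. Adgrf2 and Adgrf4 overlap on chromosome 17, so their few reads cannot be told apart by strand. Over the 16 member and marker pairs, the adjusted p was at least 0.123, since no pair of groups of 3 can go lower than 0.1.

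Genes that bind these receptors were examined as lists. Among the Celsr genes, adhesion receptors of planar cell polarity outside the Adgr symbols, Celsr3 was higher at 2.77 RPKM in WT and 4.10 RPKM in DISC1-Δ3 (log2 fold change 0.49 ± 0.08, adjusted p = 7.41e-05), Celsr1 was lower by a log2 fold change of -0.27 (adjusted p = 0.00664) and Celsr2 had -0.01 (adjusted p = 0.931). Of 28 extracellular ligands and co-receptors, 25 were tested, and 11 were higher and 2 lower, with a median log2 fold change of 0.25 against 0.01 over all genes, of which 20.4% were called higher and 19.5% lower. With library totals as the only scaling, 18 were higher and 1 lower. The teneurin Tenm2, a latrophilin ligand, had 0.58, 0.57 and 0.65 RPKM in WT and 2.94, 3.02 and 3.06 in DISC1-Δ3 (log2 fold change 2.25 ± 0.10, adjusted p = 6.28e-12). Tenm3 and Tenm4 rose by 0.45 and 0.37 on the log2 scale, and Flrt3 by 0.78 (adjusted p = 0.000266). Flrt1 (0.11, adjusted p = 0.405) and Flrt2 (0.25, adjusted p = 0.1975) did not pass the test, and Tenm1 was under the filter. The Adgrb3 ligand C1ql1 rose from 23.9 to 42.4 RPKM (log2 fold change 0.74, adjusted p = 1.47e-06). Of the other C1q-like genes, C1ql2 (0.53, adjusted p = 0.054) and C1ql3 (0.47, adjusted p = 0.0693) did not pass the test. C1ql4 was under the filter. Thy1, a cell surface protein bound by Adgre5, rose by 0.67 on the log2 scale (adjusted p = 1.79e-07). The reticulon receptor Rtn4rl2, bound by class B receptors, rose by 2.06 on the log2 scale (adjusted p = 8.47e-08), and Rtn4rl1 was lower with -0.44 (adjusted p = 6.81e-05). The Adgrg1 ligands Col3a1 and Tgm2 did not pass the test, with 0.24 (adjusted p = 0.0538) and 0.09 (adjusted p = 0.323). Lama2 (-0.11, adjusted p = 0.233) and Prnp (0.02, adjusted p = 0.787), which bind Adgrg6, did not pass it either. The collagen genes Col4a1 and Col4a2 of the same ligand list were higher, with 0.33 (adjusted p = 3.02e-05) and 0.24 (adjusted p = 0.000426).

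Of 22 intracellular partners, 5 were higher and 5 lower, with a median log2 fold change of -0.05. The called share was 45.5%, near the 39.9% of all genes tested, and is no result about the list. Gnai1, an inhibitory G protein subunit, was highest in change with 1.003 ± 0.095 (adjusted p = 1.66e-07), from 3.80 to 8.04 RPKM. Gnai2, far higher at 898.3 RPKM in WT, was lower with -0.20 (adjusted p = 0.00142), and Gnai3 did not pass the test with 0.10 (adjusted p = 0.356). Tiam1, a Rac exchange factor that binds Adgrb1, rose by 0.35 (adjusted p = 0.0021). Gnas, the stimulatory subunit, rose by 0.34 on the log2 scale (adjusted p = 3.30e-06), and the scaffold gene Dlg4 by 0.31 (adjusted p = 6.60e-05). Among those lower were Arrb2, an arrestin, with -0.46 (adjusted p = 2.46e-07), and Elmo1, the adaptor of Adgrb1, with -0.29 (adjusted p = 6.48e-05). Dock1, the partner of Elmo1, had 0.08 (adjusted p = 0.355), and Gna12 and Gna13, through which Adgrg1 signals to RhoA, had -0.02 (adjusted p = 0.801) and -0.07 (adjusted p = 0.339). The cell type marker sums moved alongside these lists, and their part in the lists' changes was not tested.

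**Figure D5:**
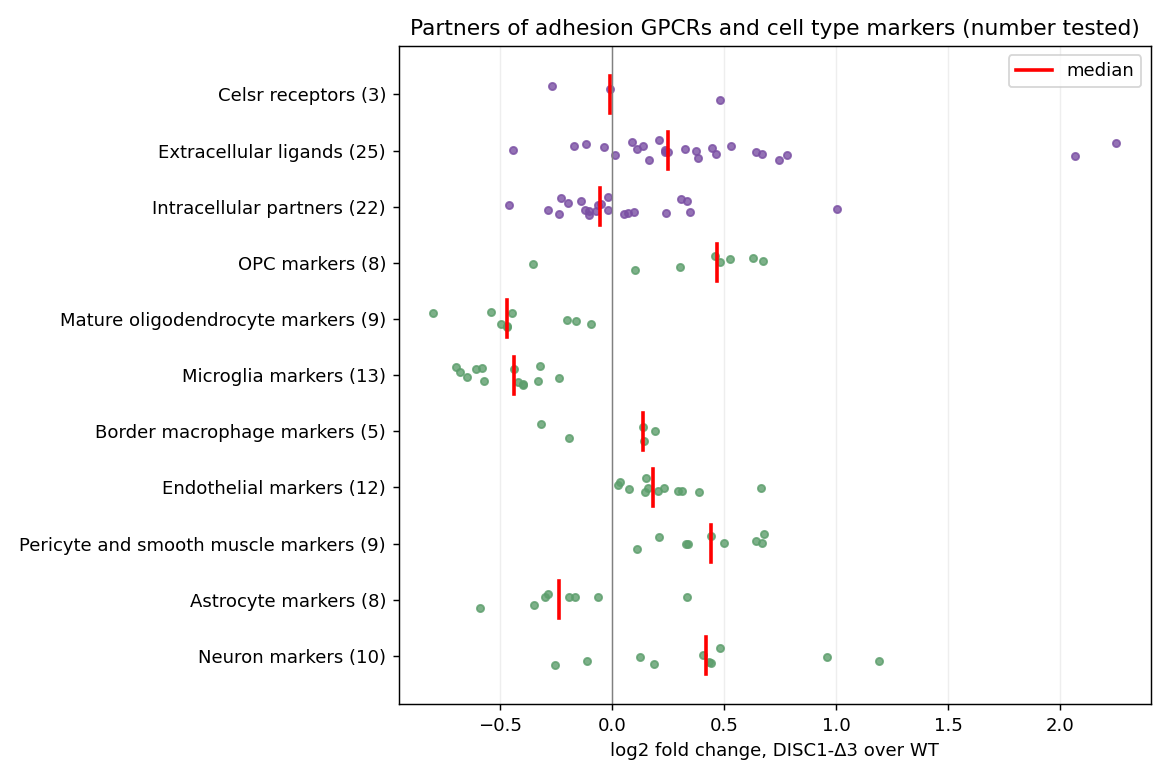
Fitted log2 fold changes, DISC1-Δ3 minus WT, of the genes in each list, with 1 point per tested gene and the median as a line. The microglial genes all lay below 0, with a median of -0.43, and the pericyte and smooth muscle genes had a median of 0.44.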

How the data were processed

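Immunopanned P7 OPCs were sequenced as 50 base single-end reads after oligo(dT) selection. The authors deposited an expected count and an RPKM per gene and library. In the expected counts, reads matching several genes are divided between them, and 90.2% of the values above 0 were whole. The submitters' processing notes name Bowtie2 2.2.5 and mm10. The deposited RPKM divides counts by transcript length and library total. The table's 4 columns of group averages were not used.

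Rounded expected counts were tested in R 4.3.3 with edgeR 4.0.16 (quasi-likelihood, TMM scaling, genotype as the sole term) on genes that reached an RPKM of 0.5 in 3 or more libraries. P-values are two-sided and adjusted by Benjamini-Hochberg over all 13792 genes. The fit was tested on simulated data. Alternatives were DESeq2 1.42.0, limma 3.58.1 on log2(RPKM + 1) and log2(RPKM + 0.1), other scalings and filters, the replicate number as a block, and each library left out. Ratios to marker sums were compared by exact permutation over libraries, and 5 of the 16 pairs were added after the data were seen. Depth was 13716619 to 16417219 reads per library. Intervals cover counting error only, since they rest on reads summed over the libraries of a group and leave out the spread between libraries. Reads carried no molecular identifiers, so copies of 1 molecule could not be recognised and the intervals may be too narrow.

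Members and lists were chosen with earlier results of these data known. Every Adgr gene was named, except for an item that is not reported here. From each list, up to 5 called genes with the largest change and without overlap were named, along with stated ligands and partners of members. Gnai2 and Gnai3 were named beside Gnai1. Promoter windows are RefSeq GRCm38.p6.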

Additional observations from a re-analysis of the deposited data

How the results depend on the processing

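Over 15 alternatives, the 4 members called higher were called higher in all that tested them, and the lower calls of Adgre1 and Adgrg1 held in all. The number called lower was 3 instead of 5 with library totals alone as scaling and in both limma fits. Adgra3, Adgrb3 and Adgrl1 were called in 4, 4 and 3 alternatives. Leaving out each library gave 4 to 5 members higher and 4 to 6 lower. With library totals, the median log2 fold change of all genes moved to 0.09, and 18 extracellular ligands were higher instead of 11 and 1 lower instead of 2. Both limma fits gave 1 extracellular ligand and 0 Celsr genes lower (also 0 at an unadjusted p under 0.05, and 1 by edgeR), and leaving out a library gave 1 to 2 such ligands. Signs of values near 0 turned. Adgra1 was 0.0576 with library totals, 0.0379 and 0.046 by limma with pseudocounts of 1 and 0.1, and -0.0853 to 0.0079 when libraries were left out. Adgrb2 was -0.0074 with edgeR's own filter and -0.0395 to 0.0493 when libraries were left out. Relative to OPC markers by their geometric mean, Adgrb1 had a log2 ratio of -0.13 instead of 0.03. With the replicate number as a block, 4 members were higher and 5 lower. Samples with the same number deviated with correlations of 0.117, 0.03 and -0.034, and those with unlike numbers with -0.1 to 0.062. Deviations from means of 3 libraries can hardly show a pairing, so whether the numbers pair the samples is not settled. DISC1-Δ3 library 3 differed more from its group, where chi-square over degrees of freedom was 5.42 and 5.01 against 2.6 for the other pair. Depth limits what can be said of the 7 members under the filter.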
